A study of Mus musculus with 5 samples.

Results

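The collagen genes, taken as every row of the deposited table whose symbol has the form Col, a type number, a and a chain number, numbered 44 of 55250 named genes. They were compared between sorted mouse primary cells labelled PMN-MDSC, from lung (3 libraries, replicates 1, 2 and 3) and from tumor (2 libraries, replicates 2 and 3). The abbreviation is in common use for myeloid-derived suppressor cells of the polymorphonuclear kind, which belong to the neutrophil lineage and dampen T cell responses in cancer, and the series title places them in a study of galectin-1, STING and metastasis. All 5 libraries were labelled wild type, and the treatment label holds only the tissue. The sources used here do not give strain, age, tumor model or sort markers, nor whether each library came from its own animals. The p-values therefore cover only library-to-library spread, which may be technical.

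Collagens are matrix proteins built from chains that wind into a rope-like helix, and the vertebrate types fall into classes by the structure they form. Fibrillar collagens make the tension-bearing fibrils of connective tissue, type IV makes the sheet of basement membranes, type VI makes beaded microfilaments, and the FACITs (fibril-associated collagens with interrupted helices) sit on fibril surfaces. Transmembrane collagens span the plasma membrane of the cell that makes them. Fibroblasts and related mesenchymal cells are the main makers of fibrillar and type VI collagen, epithelia and endothelia make type IV, and neutrophils are known for collagen-cleaving enzymes, not for making the fibrils.

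Values are TPM, a transcript's abundance corrected for its length and scaled so that each library sums to 1000000. The depth behind each value is unknown, because TPM does not retain counts and the labels give only a nominal read number. Differences are means of log2(TPM + 1) in tumor minus lung with the standard error (SE) from limma, and understate the change of low genes. A gene was called higher or lower at a Benjamini-Hochberg adjusted p under 0.05 over the 16387 genes that averaged 1 TPM or more, together with a change of 1.5-fold or more on this scale. The libraries did not hold leukocyte transcripts at like levels. Ptprc, the gene of the pan-leukocyte protein CD45, was at 842, 926 and 959 TPM in lung and at 18.5 and 75.3 TPM in tumor replicates 2 and 3. The lung sums of 12 neutrophil markers were 50830, 61950 and 36800 TPM, and the tumor sums were 1120 and 3848 TPM. For 12 epithelial markers the lung sums were 116, 58.6 and 58.6 TPM, and the tumor sums were 6316 and 6347 TPM. These levels go against the cell type label of both tumor libraries, and "tumor" in what follows means the libraries labelled so. The part of other cell types in the results was not tested, and fewer cells of a type cannot be told apart from less RNA per cell.

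Summed over the 44 genes, collagen transcripts were at 134, 109 and 109 TPM in lung and at 2463 and 1017 TPM in tumor. Mitochondrially encoded transcripts made up 4.19%, 4.4% and 2.67% of the lung libraries and 9.01% and 15.1% of tumor replicates 2 and 3, and their part in the results was not tested beyond a rescaling without them, which gave 3.89 for the difference that follows. Both tumor sums lay above every lung sum, with a difference in log2 of the sum of 3.76 (exact permutation test, two-sided, p = 0.1, the smallest that 3 against 2 libraries allow). Of the 44 genes, 27 reached the mean of 1 TPM and were tested. In tumor 20 were called higher and 2 lower, beside 31.6% of all tested genes called higher and 27.0% called lower. Genes that are near 0 in lung enter the test only when they are high in tumor, so this count was also made with no filter. Of all 44 genes 20 were then called higher and 2 lower, or 45.5% and 4.55%, beside 14.5% and 12.4% of 34930 genes. The sets differed by 1 gene, as Col1a2 lost its call with no filter (limma, adjusted p = 0.0786) and Col28a1 gained one (limma, 1.04, adjusted p = 0.048). By the values alone, both tumor libraries lay above all lung libraries for 25 of the 44 collagens and below for 11. The groups overlapped for 8. Of the 34930 genes 24.5% lay above and 30.1% below. Of the 27 tested, 22 lay above and 3 below, where the shares over all tested genes were 39.9% and 35.7%. Without tumor replicate 2, in which most fibrillar collagens were highest, the difference in log2 of the sum was 3.12.

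**Figure D1:**
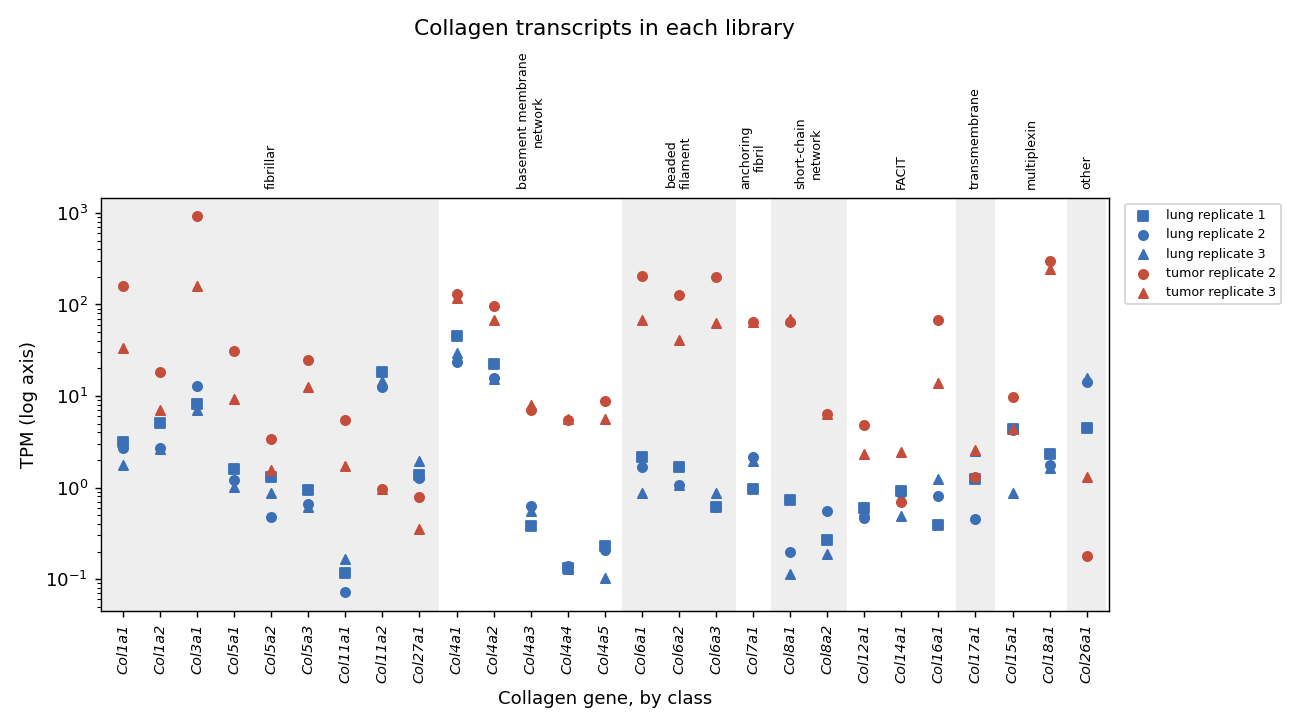
TPM on a log axis of the 27 tested collagen genes, 1 point per library, with genes grouped by class. The tumor points lie above the lung points for 22 genes and below for Col11a2, Col26a1 and Col27a1. For Col14a1 and Col17a1 the groups overlap.

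The makeup of the collagen transcripts differed as well. In lung, Col4a1 was the leading collagen, with 33.6%, 21.4% and 26.9% of all collagen TPM in replicates 1, 2 and 3. In tumor replicate 2 Col3a1 led with 37.2%, followed by Col18a1 with 12.3%, and in tumor replicate 3 Col18a1 led with 24.1%, followed by Col3a1 with 15.7%. Type IV genes together held 51.4%, 36.9% and 41.6% of collagen TPM in lung and 9.96% and 20.0% in tumor, although their own level was higher in tumor. Type VI genes held 3.39%, 3.11% and 2.64% in lung and 21.6% and 17.0% in tumor.

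**Figure D2:**
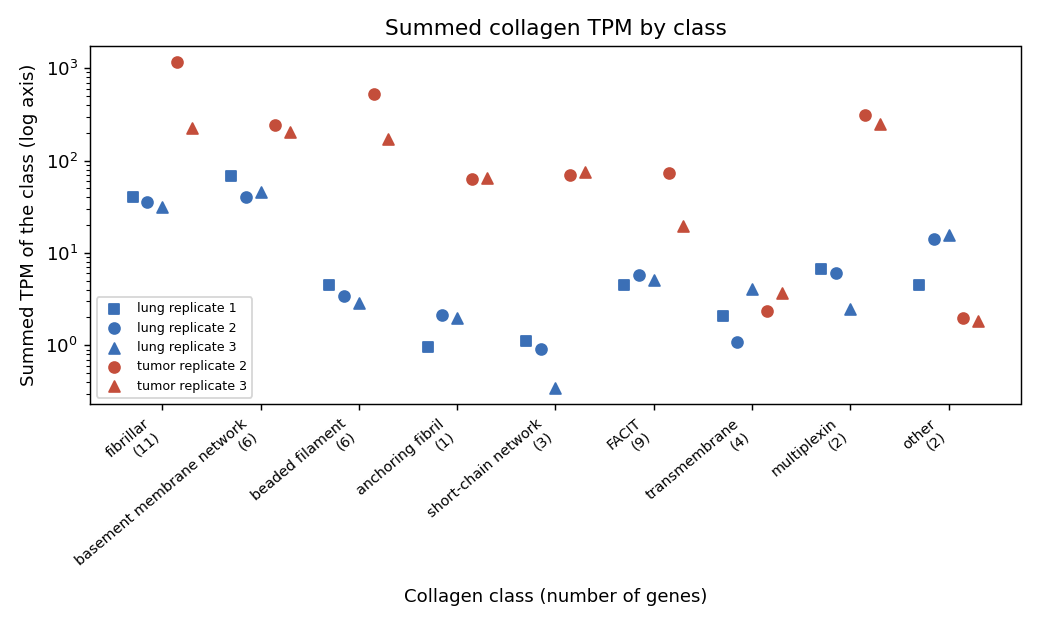
Summed TPM of each collagen class on a log axis, 1 point per library, with the number of genes in brackets. Fibrillar sums were 31.1 to 40.7 TPM in lung and 227 and 1163 TPM in tumor, whereas the transmembrane sums of tumor and lung overlapped.

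Among the 11 fibrillar collagens, 9 were tested, of which 6 were higher, 1 was lower and 2 did not pass. The shares over all tested genes were 31.6% higher and 27.0% lower. With no filter 5 of the 11 (45.5%) were higher and 1 (9.09%) lower, beside 14.5% and 12.4% of all genes. Col3a1, the chain of type III collagen in reticular fibers, was at 8.13, 12.9 and 7.04 TPM in lung and at 917 and 159 TPM in tumor. It had the highest level of any collagen in these libraries, and its difference was 5.25 ± 0.77 (limma, adjusted p = 0.00416). Col1a1, the first chain of type I collagen, was at 3.17, 2.70 and 1.77 TPM in lung and at 159 and 33.9 TPM in tumor (4.42 ± 0.67, limma adjusted p = 0.00449). Its partner chain Col1a2 was at 5.12, 2.73 and 2.64 TPM in lung and at 18.2 and 6.98 TPM in tumor. The groups of Col1a2 did not overlap, but tumor replicate 3 was close to lung replicate 1, and the difference was 1.50 ± 0.47 (limma, adjusted p = 0.0403). The Col1a2 call was lost without tumor replicate 2 (0.87, adjusted p = 0.201), without lung replicate 2 or 3 (adjusted p = 0.108 and 0.105), with no filter (adjusted p = 0.0786), under quantile normalization (adjusted p = 0.0842), in an unmoderated test (adjusted p = 0.119) and with a replicate block on the number in the titles (adjusted p = 0.0667).

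The regulatory chains of fibrils, types V and XI, were divided. Col5a1 was at 1.60, 1.22 and 1.02 TPM in lung and at 30.7 and 9.21 TPM in tumor (2.99 ± 0.51, limma adjusted p = 0.00634). Col5a3 was at 0.938, 0.659 and 0.620 TPM in lung and at 24.6 and 12.7 TPM in tumor (3.43 ± 0.33, limma adjusted p = 0.0016). Col5a2, the usual partner of Col5a1, stayed low in both tissues, at 1.30, 0.477 and 0.878 TPM in lung and at 3.37 and 1.54 TPM in tumor, and did not pass (0.84 ± 0.38, limma adjusted p = 0.112). In type XI, a collagen of cartilage fibrils, the chains went opposite ways. Col11a1 was at 0.117, 0.0721 and 0.168 TPM in lung and at 5.43 and 1.71 TPM in tumor (1.90 ± 0.45, limma adjusted p = 0.0179), a call that ended without lung replicate 2 (adjusted p = 0.0518), in an unmoderated test (adjusted p = 0.0529) and with the replicate block (adjusted p = 0.0732). Without tumor replicate 2 Col11a1 fell below the filter and was not tested. Col11a2 was at 18.1, 12.6 and 14.7 TPM in lung and at 0.973 and 0.960 TPM in tumor, a mean 15.7-fold lower in tumor (-3.02 ± 0.21, limma adjusted p = 0.0011). It was the only fibrillar collagen called lower, and in lung it stood above Col3a1, Col1a1 and Col1a2 in all libraries but replicate 2, where Col3a1 was slightly higher. Col27a1, a fibrillar collagen of cartilage and developing tissue, was at 1.37, 1.26 and 1.94 TPM in lung and at 0.784 and 0.350 TPM in tumor and did not pass (adjusted p = 0.109).

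The start regions of Col3a1 and Col11a2, the fibrillar genes with the highest rise and the deepest fall, are shown as the 250 bases before the RefSeq start (GRCm38.p6), 5′ to 3′ on the strand of the gene. Col3a1 lies on chromosome 1, and the shown bases are chr1:45311288-45311537 on the plus strand. For Col11a2 they are chr17:34038888-34039137 on the plus strand. Capitals mark TATAAA and GGGCGG or its reverse complement.
Col3a1: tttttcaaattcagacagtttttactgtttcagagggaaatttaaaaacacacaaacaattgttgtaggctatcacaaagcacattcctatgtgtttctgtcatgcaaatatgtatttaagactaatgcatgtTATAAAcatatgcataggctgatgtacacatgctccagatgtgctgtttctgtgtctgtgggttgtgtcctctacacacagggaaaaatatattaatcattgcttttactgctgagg
Col11a2: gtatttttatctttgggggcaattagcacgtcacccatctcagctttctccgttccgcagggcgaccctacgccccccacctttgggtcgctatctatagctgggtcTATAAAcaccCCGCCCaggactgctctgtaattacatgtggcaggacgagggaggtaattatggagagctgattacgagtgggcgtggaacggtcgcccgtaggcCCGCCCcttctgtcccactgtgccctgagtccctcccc
The Col3a1 window holds 1 TATAAA, no GGGCGG and 35.2% G and C, and the Col11a2 window 1 TATAAA, 2 copies of GGGCGG and 57.6% G and C. On either strand TATAAA was found in 12.4% and GGGCGG in 32.7% of 32851 such windows of all genes, and in 5 and 22 of 38 windows of the 35 collagen genes listed. CCAAT, also searched on both strands, was in 33.8% of all windows and in 13 of the 38. These are matches of letters and no evidence of binding.

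All 5 tested type IV chains of the basement membrane were higher, beside 31.6% of all tested genes. With no filter 5 of the 6 type IV genes (83.3%) were higher and 0 lower, beside 14.5% and 12.4% of all genes. Col4a1 and Col4a2, the chains of the common type IV network, were already the most abundant pair in lung. Col4a1 was at 45.0, 23.4 and 29.3 TPM in lung and at 129 and 117 TPM in tumor (1.93 ± 0.30, limma adjusted p = 0.00483), and without tumor replicate 2 its adjusted p was 0.0506. Col4a2 was at 22.6, 15.7 and 15.2 TPM in lung and at 95.5 and 67.3 TPM in tumor (2.13 ± 0.26, limma adjusted p = 0.00255). The remaining chains belong to more restricted networks of specialised basement membranes such as those of kidney and lung. Col4a3 was at 0.382, 0.631 and 0.559 TPM in lung and at 7.01 and 7.89 TPM in tumor (2.47 ± 0.23, limma adjusted p = 0.00154). Col4a4 was at 0.133, 0.141 and 0.128 TPM in lung and at 5.46 and 5.64 TPM in tumor (2.53 ± 0.25, limma adjusted p = 0.00166). Col4a5 was at 0.232, 0.206 and 0.104 TPM in lung and at 8.83 and 5.56 TPM in tumor (2.77 ± 0.29, limma adjusted p = 0.00186). Col4a6 was the exception in level. It was at 0.508, 0.283 and 0.0421 TPM in lung, listed at 0 in tumor replicate 2 and at 0.0344 TPM in tumor replicate 3, and was too low to be tested.

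The 6 type IV genes lie as 3 head-to-head pairs, whose members are read away from each other from neighbouring starts. In GRCm38 with the GENCODE M21 annotation, Col4a1 (chromosome 8, 11198423 to 11312826, minus strand) and Col4a2 (11312805 to 11449287, plus strand) overlap at their starts by 22 bases. Reads from such overlapping exons cannot be assigned with certainty unless strand is used, which the sources used here do not state. Col4a4 (chromosome 1, 82448423 to 82586849, minus strand) and Col4a3 (82586921 to 82722059, plus strand) are 71 bases apart. Col4a6 (chromosome X, 141165403 to 141474076, minus strand) and Col4a5 (141475385 to 141689234, plus strand) are 1308 bases apart. The first and second pair were higher in tumor with both members, while of the X-linked pair Col4a5 rose and Col4a6 was too low to be tested. The bases between the starts of Col4a3 and Col4a4 (chr1:82586850-82586920, minus strand, in the direction of Col4a4) are given first. They are followed by the bases before Col4a5 (chrX:141475169-141475384, plus strand) and before Col4a6 (chrX:141474077-141474326, minus strand), to set a pair with both members called beside a pair with 1. Capitals mark CCAAT and GGGCGG or their reverse complements, and the sequences are from RefSeq, GRCm38.p6.
Col4a4 to Col4a3: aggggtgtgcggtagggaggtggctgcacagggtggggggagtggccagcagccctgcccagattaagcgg
Col4a5: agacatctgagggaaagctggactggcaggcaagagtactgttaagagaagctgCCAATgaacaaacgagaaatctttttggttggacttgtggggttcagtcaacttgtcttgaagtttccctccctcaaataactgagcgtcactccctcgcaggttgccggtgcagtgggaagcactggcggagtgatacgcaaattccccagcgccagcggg
Col4a6: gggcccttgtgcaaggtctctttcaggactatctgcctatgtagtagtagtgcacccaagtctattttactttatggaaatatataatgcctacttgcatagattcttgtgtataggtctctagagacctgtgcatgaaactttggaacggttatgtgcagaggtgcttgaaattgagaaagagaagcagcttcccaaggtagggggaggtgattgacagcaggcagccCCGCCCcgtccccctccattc
The 71 bases between Col4a3 and Col4a4 are 69.0% G and C and hold no match to any of the motifs searched. The Col4a5 bases are 52.3% G and C and hold 1 CCAAT, and the Col4a6 bases are 47.6% G and C and hold 1 GGGCGG. The full Col4a5 window also holds 1 GGGCGG, which is not wholly within the shown bases. The shown stretches are 71, 216 and 250 bases long, so their motif counts cannot be compared directly.

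The 3 classical type VI chains, which assemble together into beaded microfilaments around cells, all rose. They were the only type VI genes tested, and all were called higher, beside 31.6% of all tested genes. With no filter 3 of the 6 type VI genes were higher and 0 lower, beside 14.5% and 12.4% of all genes. Col6a1 was at 2.14, 1.68 and 0.863 TPM in lung and at 207 and 68.3 TPM in tumor (5.59 ± 0.53, limma adjusted p = 0.00158). Col6a2, its neighbour on chromosome 10 at a distance of 85.2 kb on the same strand, was at 1.68, 1.07 and 1.07 TPM in lung and at 126 and 40.9 TPM in tumor (5.02 ± 0.50, limma adjusted p = 0.0017). Col6a3, on chromosome 1, was at 0.612, 0.609 and 0.869 TPM in lung and at 198 and 63.2 TPM in tumor (6.06 ± 0.50, limma adjusted p = 0.00129). All 3 were about 3 times as high in tumor replicate 2 as in replicate 3, with ratios of 3.04, 3.09 and 3.13. The later-described chains Col6a4, Col6a5 and Col6a6, which lie in a row on chromosome 9, were not above 0.431 TPM in any library and were not tested.

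Collagens of basement membrane zones and of sheet-like networks outside type IV are described next. Col18a1 encodes a basement membrane collagen whose end fragment is endostatin. It was at 2.31, 1.77 and 1.62 TPM in lung and at 302 and 245 TPM in tumor, a difference of 6.56 ± 0.19 (limma, adjusted p = 0.000901). That was the largest among collagens with a pseudocount of 1, whereas with 0.1 Col8a1 (7.47) and Col6a3 (7.15) stood above Col18a1 (7.10). The related Col15a1 was at 4.40, 4.26 and 0.863 TPM in lung and at 9.70 and 4.41 TPM in tumor and did not pass (1.02 ± 0.60, limma adjusted p = 0.2). Col7a1, the anchoring fibril chain that fastens epithelia to the matrix below, was at 0.955, 2.15 and 1.96 TPM in lung and at 63.6 and 64.6 TPM in tumor (4.63 ± 0.26, limma adjusted p = 0.000901). Col8a1, a short chain of hexagonal networks, was at 0.728, 0.200 and 0.113 TPM in lung and at 63.9 and 69.0 TPM in tumor (5.67 ± 0.26, limma adjusted p = 0.000901). Its partner Col8a2 was at 0.265, 0.549 and 0.187 TPM in lung and at 6.41 and 6.36 TPM in tumor (2.48 ± 0.26, limma adjusted p = 0.0018). For Col7a1, Col8a1 and Col8a2 the tumor libraries lay close together and above every lung library, whereas tumor replicate 3 of Col15a1 was level with lung replicates 1 and 2. Col10a1, the network collagen of growth plate cartilage, was not above 0.161 TPM in any library.

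Of the 9 FACIT genes, 3 were tested and 2 of those were higher, beside 31.6% of all tested genes. With no filter 2 of the 9 (22.2%) were higher and 0 lower, beside 14.5% and 12.4% of all genes. Col16a1, found near the surface of fibrils and cells, was at 0.387, 0.809 and 1.25 TPM in lung and at 67.7 and 14.0 TPM in tumor (4.17 ± 0.68, limma adjusted p = 0.0056). Col12a1, which decorates type I fibrils, was at 0.596, 0.470 and 0.557 TPM in lung and at 4.84 and 2.34 TPM in tumor (1.52 ± 0.34, limma adjusted p = 0.0145). Its call ended with the replicate block (adjusted p = 0.0646), and without tumor replicate 2 its mean was 0.99 TPM, below the filter, so that it was not tested. Col14a1 was at 0.915, 0.879 and 0.493 TPM in lung and at 0.692 and 2.45 TPM in tumor, with overlapping groups (adjusted p = 0.375). The other 6 FACIT genes were below the filter, of which Col9a2, Col19a1 and Col22a1 were not above 0.269 TPM in any library. Among them Col20a1 was at 0.706, 1.35 and 1.74 TPM in lung and at 0.0824 and 0.192 TPM in tumor, and Col9a3 was at 1.42, 1.94 and 0.686 TPM in lung and at 0.0879 and 0.392 TPM in tumor. Col9a1 was listed at 0 in both tumor libraries and was not above 0.129 TPM in lung.

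Transmembrane collagens were low in both tissues and none was called. Col17a1, the hemidesmosome collagen of basal epithelial cells, was at 1.24, 0.449 and 2.54 TPM in lung and at 1.29 and 2.57 TPM in tumor (0.34 ± 0.48, limma adjusted p = 0.56). All 5 hemidesmosome genes listed with it were higher in tumor, among them Itga6 and Itgb4, the integrin chains that bind laminin there, at 12.4 ± 2.09 (SD, n = 3) and 325 ± 38.1 (SD, n = 2) TPM and at 1.46 ± 0.921 and 191 ± 12.1 TPM in lung and tumor. Dst rose from 9.60 to 36.1 TPM and Cd151 from 22.8 to 174 TPM. The 5 were called higher with and without the filter, where 31.6% of all tested genes and 14.5% of all genes with no filter were. Col13a1, Col23a1 and Col25a1 were not above 0.774 TPM in any library. Both tumor values of Col23a1 (0.632 and 0.600 TPM) were above its lung values (0.332, 0.210 and 0.241 TPM), and both of Col25a1 (0.238 and 0.190 TPM) were below (0.336, 0.419 and 0.499 TPM).

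Col26a1, an unclassified secreted collagen described in testis and ovary, was the other gene called lower. It was at 4.46, 14.3 and 15.7 TPM in lung and at 0.181 and 1.31 TPM in tumor (-2.76 ± 0.61, limma adjusted p = 0.0142). This call was lost without tumor replicate 2 (-2.28, adjusted p = 0.116) and in an unmoderated test (adjusted p = 0.0654). Of the 17 collagens below the filter, 13 did not reach 1 TPM in any library and 9 were listed at 0 in at least 1. Col2a1, the main collagen of cartilage, was at 0.843, 0.547 and 0.321 TPM in lung and at 0.461 and 0.0142 TPM in tumor. Col24a1, another fibrillar collagen, was listed at 0 in lung replicates 1 and 2, at 0.00651 TPM in replicate 3, and at 2.33 and 0.320 TPM in tumor. Col28a1 was at 0.0113 TPM in lung replicate 1, listed at 0 in the other lung libraries, and at 1.80 and 0.525 TPM in tumor. Just inside the filter stood Col27a1 and Col14a1 with means of 1.14 and 1.09 TPM, and just outside Col9a3 and Col20a1 with 0.904 and 0.815 TPM.

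**Figure D3:**
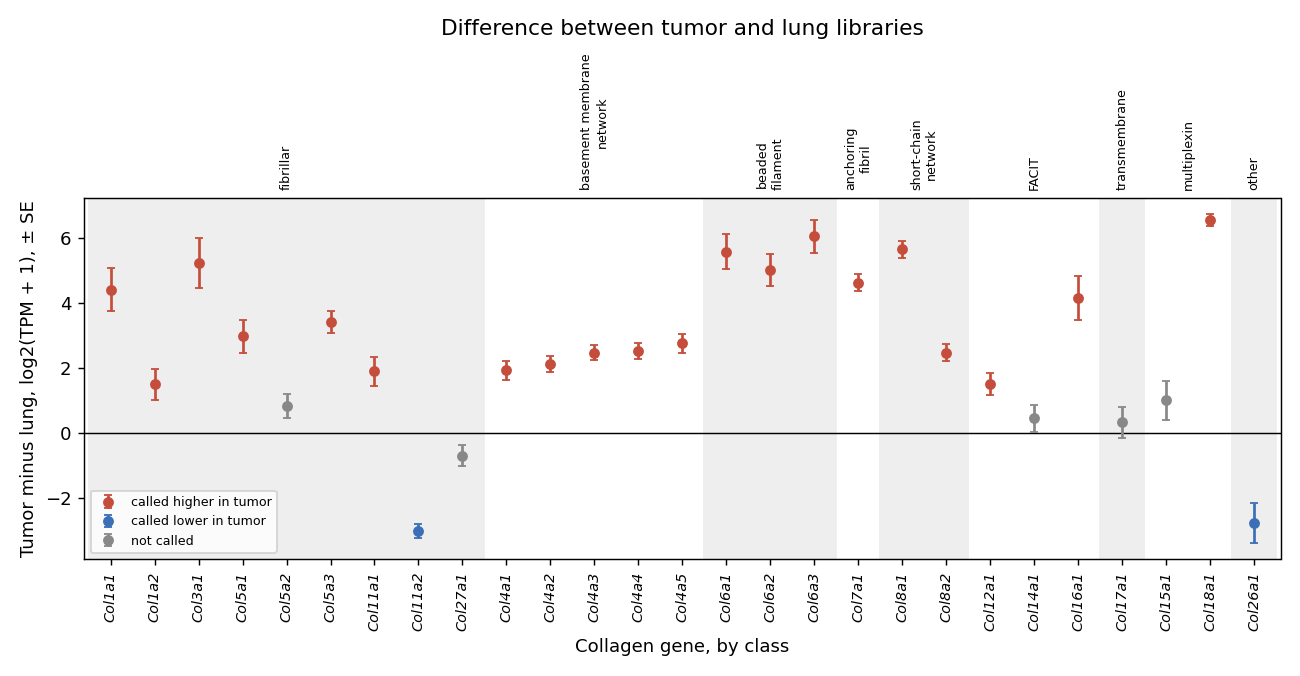
Difference in log2(TPM + 1), tumor minus lung, with SE from limma (3 lung and 2 tumor libraries) for the 27 tested collagens by class. Of these, 20 were called higher, Col11a2 and Col26a1 lower, and Col5a2, Col14a1, Col15a1, Col17a1 and Col27a1 did not pass.

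The 2 tumor libraries differed from each other by class. Of 18 collagens with at least 5 TPM in both, 7 were at least 3 times as high in tumor replicate 2 as in replicate 3, namely Col3a1 (5.75), Col16a1 (4.84), Col1a1 (4.70), Col5a1 (3.33), Col6a3 (3.13), Col6a2 (3.09) and Col6a1 (3.04). Of all 9353 genes at that level 0.62% reached such a ratio, and the median was 1.07. Another 8 collagens had a ratio under 1.5, and those were Col4a3 (0.888), Col8a1 (0.926), Col4a4 (0.968), Col7a1 (0.985), Col8a2 (1.01), Col4a1 (1.10), Col18a1 (1.23) and Col4a2 (1.42). Col1a2, Col5a3 and Col4a5 lay between, at 2.61, 1.94 and 1.59. The 7 genes were fibrillar or type VI apart from Col16a1, a FACIT, and the 8 were type IV, VII, VIII and XVIII chains. With 1 library on each side there is no test of this split.

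Marker genes of other cell types are given beside it. The 12 epithelial markers had a ratio of 0.995 in their sum between the same libraries, and Krt8, a keratin of simple epithelia, was at 1420 and 1270 TPM in tumor replicates 2 and 3. Leukocyte markers went the other way, with 617 and 1871 TPM for the sum of 10 genes. Of 12 fibroblast markers, Pdgfra was at 27.4 and 5.05 TPM, Dcn at 63.7 and 10.7 TPM, Thy1 at 64.8 and 6.23 TPM, Twist2 at 25.5 and 3.48 TPM and Lum at 7.81 and 0.416 TPM, ratios between 5.41 and 18.8, chosen here for their large ratios. Dpt was at 1.61 and 0.310 TPM, a ratio of 5.19. Of the other members, Fap, Pdgfrb, Gli1 and Mfap5 had ratios of 1.60, 1.93, 1.95 and 2.22, Pi16 had 0.28, and Tcf21 was listed at 0 in tumor replicate 2 and at 0.0212 TPM in replicate 3. Both tumor values lay above lung for 5 of the 12 (Pdgfra, Dcn, Thy1, Fap and Twist2) and below for Mfap5, Pi16 and Tcf21. The groups overlapped for 4. Over all tested genes 39.9% lay above and 35.7% below, and with no filter 24.5% and 30.1%. Dpt, Mfap5, Tcf21 and Gli1 were below the filter, so the no-filter shares are the matching ones. The 5 above are near a share of 39.9% but not of 24.5%, and the list was not tested as a set. In lung, Dcn was at 3.06, 1.99 and 1.64 TPM and Pdgfra at 0.438, 0.535 and 1.40 TPM. The sum of the fibroblast list was 211, 204 and 183 TPM in lung and 202 and 44.0 TPM in tumor, a ratio of 4.59 between the tumor libraries. In lung this was nearly all Pi16, at 198, 195 and 168 TPM, and without Pi16 the lung sums were 12.8, 8.33 and 14.5 TPM and the tumor sums 198 and 30.3 TPM, a ratio of 6.53, a trimming made after the values were seen. No fibroblast marker was listed at 0 in every library of a group. Pdgfrb, shared by fibroblasts and pericytes, was at 3.05, 1.35 and 2.10 TPM in lung and at 3.14 and 1.63 TPM in tumor. The 10 endothelial markers had lung sums of 409, 231 and 283 TPM and tumor sums of 32.2 and 41.1 TPM. Pecam1 alone was at 63.7, 39.7 and 55.6 TPM in lung and at 6.96 and 16.8 TPM in tumor. The 10 smooth muscle and pericyte markers had lung sums of 19.4, 24.8 and 19.3 TPM and tumor sums of 31.2 and 37.2 TPM. In tumor most of that sum was Notch3 (20.7 and 21.8 TPM) and Rgs5 (6.84 and 9.44 TPM), while Acta2, Tagln, Myh11, Cnn1 and Kcnj8 were below every lung library. Macrophage markers (8 genes) had lung sums of 774, 683 and 770 TPM and tumor sums of 453 and 1063 TPM. The members went opposite ways. In tumor C1qa (15.6, 6.85 and 6.13 TPM in lung, 137 and 309 TPM in tumor), C1qb and C1qc were above every lung library. Csf1r (459, 396 and 460 TPM in lung, 49.4 and 149 TPM in tumor), Adgre1, Cd68 and Mertk were below every lung library, and Mrc1 overlapped. Mesothelial markers (5 genes) were at 6.50, 4.69 and 1.98 TPM in lung and at 428 and 388 TPM in tumor, where Msln (428 and 387 TPM) made up nearly all of the sum and Upk3b, Lrrn4, Wt1 and Rspo1 were below every lung library. Chondrocyte markers (5 genes) were at 1.35, 1.44 and 1.50 TPM in lung and at 49.5 and 36.8 TPM in tumor, nearly all of it Sox9 (39.6 and 30.2 TPM) and Acan (9.35 and 6.05 TPM). Comp and Cnmd overlapped with lung, and Matn1 was listed at 0 in both tumor libraries. Osteoblast markers (5 genes) were at 48.6, 47.9 and 38.9 TPM in lung and at 23.6 and 17.7 TPM in tumor, with Bglap listed at 0 in both tumor libraries. Most of that sum was Runx2 (34.7, 47.4 and 38.0 TPM in lung, 19.0 and 17.3 TPM in tumor). Sp7 was at 13.7 TPM in lung replicate 1 and not above 0.0241 TPM elsewhere. Alveolar and airway markers (8 genes) were at 519, 172 and 145 TPM in lung and at 19.4 and 11.7 TPM in tumor, where Sftpa1 was listed at 0. In tumor nearly all of that sum was Hopx (15.7 and 5.95 TPM) and Foxj1 (3.51 and 4.25 TPM). Foxj1 was above every lung library (1.96, 1.11 and 0.454 TPM), and the rest of the list was below. The part of these cells in the collagen values was not tested.

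**Figure D4:**
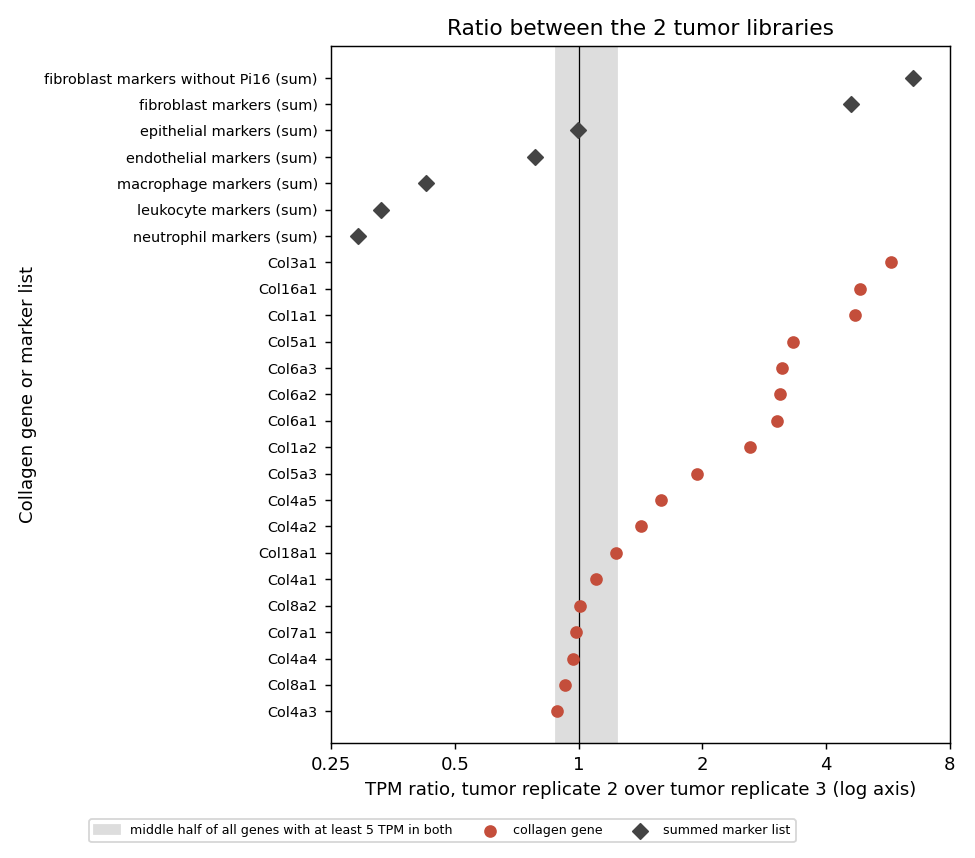
Ratio of TPM in tumor replicate 2 to tumor replicate 3 on a log axis, for the 18 collagens with at least 5 TPM in both and for summed marker lists. The grey band is the middle 50% of all 9353 such genes. Fibrillar and type VI genes and Col16a1 lie to the right of the band. The summed fibroblast markers lie on that side too (4.59, or 6.53 with Pi16 left out after its values were seen). Most type IV, VII, VIII and XVIII genes lie in or near the band. So do the epithelial (0.995) and endothelial (0.784) markers and, not plotted, the mesothelial (1.10) and smooth muscle and pericyte (0.839) markers. Neutrophil (0.291), leukocyte (0.33) and macrophage (0.426) markers lie to the left. The cell source of the collagens was not tested.

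The differences of the split genes depend on which tumor library is used. Without tumor replicate 2 the difference was 3.99 for Col3a1, 3.32 for Col1a1, 3.07 for Col16a1, 2.17 for Col5a1, 4.79 for Col6a1, 4.21 for Col6a2 and 5.25 for Col6a3. Without tumor replicate 3 it was 6.51, 5.52, 5.27, 3.81, 6.38, 5.82 and 6.88 in the same order. All 7 were called higher either way (limma, adjusted p between 0.00537 and 0.0176, where the lone tumor library is assumed to vary like the lung libraries). Col7a1 was at 4.64 and 4.62, Col8a1 at 5.73 and 5.62, and Col18a1 at 6.41 and 6.71 without tumor replicates 2 and 3.

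The proportions of chains that share a molecule were compared per library. Type I collagen is usually built from 2 chains of Col1a1 and 1 of Col1a2. The ratio of Col1a1 to Col1a2 in TPM was 0.619, 0.987 and 0.672 in lung and 8.75 and 4.85 in tumor. Col5a1 to Col5a2 was 1.22, 2.56 and 1.16 in lung and 9.11 and 6.00 in tumor. Col4a3 to Col4a4 went the other way, from 2.88, 4.47 and 4.38 to 1.28 and 1.40. For each of these 3 pairs the groups did not overlap (exact permutation test, two-sided, p = 0.1, the smallest possible, adjusted p = 0.233 over 7 pairs). Col8a1 to Col8a2 was 2.74, 0.364 and 0.607 in lung and 9.97 and 10.8 in tumor, and Col6a1 to Col6a2 was 1.27, 1.56 and 0.810 in lung and 1.64 and 1.67 in tumor (exact permutation p = 0.2, adjusted p = 0.28 for both). The tumor values of both pairs lay above the lung values, but another division of the libraries differed as much or more. Col4a1 to Col4a2 was 1.99, 1.49 and 1.92 in lung and 1.35 and 1.73 in tumor (exact permutation p = 0.4, adjusted p = 0.4). Col4a5 to Col4a6 was 0.457, 0.726 and 2.47 in lung and 161 in tumor replicate 3, and has no value in tumor replicate 2, where Col4a6 was listed at 0. Col6a1 to Col6a3 was 3.49, 2.76 and 0.993 in lung and 1.05 and 1.08 in tumor (exact permutation p = 0.4, adjusted p = 0.4). Most lung values here rest on low TPM, and Col8a1 with Col8a2 was added after the values were seen. Col3a1 and Col5a2 are 24.6 kb apart on chromosome 1, tail to tail, and were 57.4-fold and 2.77-fold higher in mean TPM in tumor. For Col5a2 both tumor values lay above every lung value, but the gene did not pass (limma, adjusted p = 0.112).

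**Figure D5:**
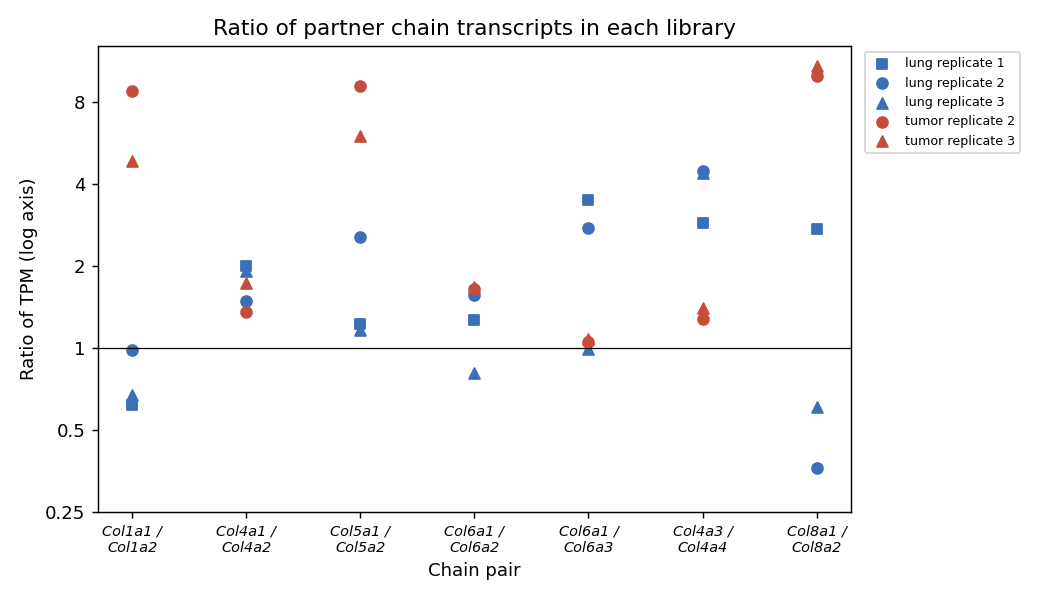
Ratio of TPM between partner chains in each library, on a log axis, for the 7 pairs with a value in all 5 libraries. The tumor points of Col1a1 over Col1a2 (8.75 and 4.85) and of Col5a1 over Col5a2 (9.11 and 6.00) lie above their lung points, and those of Col4a3 over Col4a4 (1.28 and 1.40) below.

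The genes that modify and fold collagen chains in the endoplasmic reticulum are given from a list of 24. Of 22 tested, 14 were higher and 2 lower (over all tested genes 31.6% and 27.0%), with a median difference of 1.45, where the median over all tested genes was 0.018. With no filter 13 of the 24 were higher and 1 lower, or 54.2% and 4.17%, beside 14.5% and 12.4% of all genes. P4ha2, a prolyl hydroxylase subunit that stabilises the helix, rose from 2.33 to 30.2 TPM and Plod2, the lysyl hydroxylase of crosslink sites, from 0.332 to 22.8 TPM. Crtap and P3h4, partners of the prolyl and lysyl hydroxylases, rose from 2.55 to 34.9 TPM and from 0.337 to 21.1 TPM. Serpinh1, the collagen chaperone HSP47, did not pass, at 19.4, 7.97 and 8.55 TPM in lung and at 44.6 and 16.9 TPM in tumor. The 2 lower genes were Tmem38b, an ion channel of the reticulum, and Mia2, a cargo export factor, whose call was lost with no filter (limma, adjusted p = 0.058).

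Genes that trim procollagen and crosslink fibrils were in part too low to be tested, and several entered the test through tumor alone. Of 11 trimming genes 6 were tested, of which 5 were higher and Furin, a general proprotein convertase, was lower. Over all tested genes 31.6% were called higher and 27.0% lower, and with no filter 14.5% and 12.4% of all genes. With no filter 5 of the 11 (45.5%) were higher and 0 lower, since Furin lost its call (limma, adjusted p = 0.0806, at 216, 162 and 272 TPM in lung and 98.7 and 134 TPM in tumor). Pcolce, the enhancer of C-propeptide cleavage, was at 3.16, 2.53 and 3.83 TPM in lung and at 336 and 138 TPM in tumor, and Bmp1, the C-proteinase, rose from 0.961 to 66.0 TPM. The N-propeptide proteinases Adamts14 and Adamts2 rose from 0.169 to 15.5 TPM and from 0.692 to 4.59 TPM. Of 7 crosslinking genes 5 were tested and 4 were higher, and with no filter 3 of the 7 (42.9%) were. Loxl4, a lysyl oxidase, had a tumor mean of 26.4 TPM and a lung mean of 0.894 TPM, and Pxdn, the peroxidasin that links type IV networks, was at 41.8 and 26.8 TPM in tumor with a lung mean of 4.39 TPM. The tumor libraries of the other lysyl oxidases were unequal, with Loxl3 at 22.0 and 5.68 TPM (lung mean 1.37 TPM) and Loxl1 at 15.6 and 2.50 TPM (lung mean 0.594 TPM). The Loxl1 call was lost with no filter (limma, adjusted p = 0.0767). Tgm2, the most abundant gene of the list, was at 302, 277 and 390 TPM in lung and at 94.9 and 238 TPM in tumor and did not pass (limma, adjusted p = 0.0799). With it, the summed crosslinking TPM was 311, 284 and 398 in lung and 203 and 302 in tumor.

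Partners of type IV collagen in basement membranes were higher for 9 of 12 tested genes and lower for 1, with a median difference of 3.31. With no filter 9 of all 14 (64.3%) were higher and 0 lower. The shares were 31.6% higher and 27.0% lower over all tested genes, and 14.5% and 12.4% over all genes with no filter. The laminin chains Lama3 and Lama5 rose from means of 0.272 to 87.8 TPM and from 3.27 to 67.1 TPM, and Agrn, the proteoglycan agrin, from 9.89 to 73.5 TPM. Nid1, the nidogen that links laminin to type IV collagen, was the lower gene, with means of 3.26 and 1.28 TPM, and its call was lost with no filter (limma, adjusted p = 0.0738). Of 11 tested proteoglycans and matrix proteins of fibrils 6 were higher and Eln, the elastin gene, was lower, and with no filter 7 of all 14 were higher and 1 lower. Fn1, the fibronectin gene, rose from 85.9 to 1340 TPM, and Sparc, a collagen-binding matrix protein, from 24.3, 14.7 and 11.4 TPM in lung to 1030 and 350 TPM in tumor. Tnc and Thbs2, matrix proteins that modulate cell adhesion, had lung means of 0.146 and 0.0521 TPM and were at 29.5 and 10.8 TPM and at 24.1 and 7.33 TPM in tumor replicates 2 and 3.

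Collagen receptors and collagen-degrading enzymes held genes called in either direction. Of 10 tested receptors 4 were higher and 2 lower, near the shares over all tested genes (31.6% and 27.0%). With no filter 4 of 12 (33.3%) were higher and 1 (8.33%) lower, beside 14.5% and 12.4% of all genes. Ddr1, the discoidin receptor of epithelia, rose from 1.20 to 53.2 TPM, and the integrin chains Itgb1, Itga10 and Itga2 from 79.0 to 419 TPM, from 0.152 to 6.43 TPM and from 1.81 to 14.9 TPM. The 2 lower receptors were Lair1 and Clec4a2, inhibitory receptors of leukocytes, and the Lair1 call was lost with no filter (limma, adjusted p = 0.0705). Ddr2, the receptor of mesenchymal cells, was at 29.3 and 2.61 TPM in tumor and did not pass. Of 10 tested enzymes 6 were higher and 2 lower. With no filter 5 of 13 (38.5%) were higher and 3 (23.1%) lower, beside the same shares over all genes. Mmp14, the membrane-bound collagenase, rose from 2.94 to 174 TPM and Ctsl, a lysosomal cathepsin, from 79.7 to 459 TPM, and Mmp13, a secreted collagenase, was at 13.7 and 37.4 TPM in tumor replicates 2 and 3 and at a lung mean of 0.104 TPM. Mmp8, the neutrophil collagenase, was at 263, 391 and 263 TPM in lung and at 2.12 and 13.5 TPM in tumor, and Mmp9, the gelatinase of neutrophil granules, at 982, 1030 and 1050 TPM in lung and at 75.7 and 201 TPM in tumor.

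The authors' deposited table gives its own adjusted p for each gene, and 2 of the 44 collagens were under 0.05 there, Col7a1 (0.0305) and Col8a2 (0.0435). Of the 34930 genes with a value in the authors' deposited table, 0.638% were under 0.05. In the authors' deposited table Col3a1 and Col1a1 both had an adjusted p of 0.553. The deposited p-values of all 44 lay within 0.001 of an unequal-variance comparison on untransformed TPM.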

How the data were processed

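RNA of 5 libraries from sorted cells was measured by sequencing. Expression came as deposited TPM, which the authors obtained with Salmon 0.9.1 and GENCODE mouse M24 transcripts, according to the design text of the series. The deposited table also holds the authors' p-values and adjusted p-values, used only to describe their calls, and a fold change column that was not used here. Of 55276 rows, 26 held spreadsheet dates in place of symbols (0.065% to 0.0826% of a library) and were left out. Reads that fit several transcripts are shared out by estimation, and TPM is a share, so a rise in some genes lowers others.

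Tumor and lung were compared on log2(TPM + 1) by the moderated test of limma 3.58.1 (R 4.3.3, trend on), two-sided, in genes averaging 1 TPM or more, with Benjamini-Hochberg adjustment over all 16387. The limma step was tried on simulated data with normal noise and few changed genes, all raised. These libraries had many genes called in both directions, so that trial does not vouch for the calls. Collagens were assigned to classes, and genes to pathway and marker lists, from general knowledge. The members, classes and lists were chosen with earlier results of these data known. The text names every collagen with a mean of at least 1 TPM, up to 4 members with the smallest p of each pathway list and single markers (Ptprc, Krt8, Pdgfra, Pdgfrb and Pecam1), together with marker genes listed at 0 in a group (Matn1, Bglap, Sftpa1). Epcam and S100a8, also in the rule, were at 5.44, 2.10 and 2.95 TPM and at 17200, 18300 and 10800 TPM in lung, and at 257 and 248 TPM and at 274 and 1100 TPM in tumor. Others (other marker list members, Col8a1 with Col8a2 as a pair, Tgm2, Serpinh1, Mmp8, Mmp9, Ddr2, the lower members of lists and collagens below the filter named with values) were chosen after their values were seen. Positions are from GENCODE M21 on GRCm38, matched by symbol for all 44, and start regions from the RefSeq table, which listed 35 of them. Start regions were printed only where M21 annotates no untranslated exon. Exact permutation tests used scipy 1.17.1 and figures matplotlib 3.10.9.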

Additional observations from a re-analysis of the deposited data

How the results depend on the processing

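Over 16 alternatives, 403 of 417 single-gene values kept their direction and their side of the threshold, 14 lost the call and 0 reversed. Alternatives that change only the filter, the trend or the moderation leave the difference as it is, so it could not reverse there. The replicate block gave the same differences as leaving out lung replicate 1. Of the 22 called collagens, 17 were called in every alternative in which they were tested, and Col1a2, Col4a1, Col11a1, Col12a1 and Col26a1 were not. The like share over all called genes is not given here, so 17 of 22 does not show how collagens compare with other genes. Of the 17, Col4a3, Col4a4, Col4a5 and Col8a2 were not tested with a filter at a mean of 5 TPM. Col11a1 and Col12a1 were not tested there either, and were below the main filter without tumor replicate 2. An unmoderated test called 1 collagen lower. With 1 replicate left out in turn, 16 to 20 collagens were higher and 1 to 2 lower, and over all genes 3314 to 4817 were higher and 2900 to 4134 lower, against 5178 and 4431. The lowest counts came without tumor replicate 2. The summed collagen difference was 3.12 to 4.40 with 1 library left out, 3.89 without mitochondrially encoded genes and 3.74 under upper quartile scaling. The median difference over all genes was 0.018, or 0.128 without mitochondrially encoded genes, and every collagen call kept its direction there. The title number as a replicate block left 17 collagens higher and 2 lower, and 3662 and 3449 of all genes. The labels do not say that the number pairs libraries. Correlations of deviations across genes were 0.00343 for number 2, 0.0833 for number 3 and 0.082 for tumor replicate 2 with lung replicate 1. The deviations of 2 tumor libraries from their mean mirror each other, so these values cannot decide on pairing. With 2 tumor libraries and no counts, low collagens cannot be told from counting noise.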
